A study of Mus musculus with 4 samples.

Results

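Transcripts of 43 genes that build, regulate or read out mechanistic target of rapamycin complex 1 (mTORC1) were measured by RNA-seq in mouse bone marrow-derived macrophages (BMDMs), of 28443 genes in the table of counts. The genes were picked by name from the mTOR complexes, the TSC complex, the Rag and Ragulator proteins, the GATOR complexes, the sestrins, FOXO factors, S6 kinases and 4E-BPs. The choice was made by role, with earlier results of these data known. Control cells (MYC-WT) came from 8-week-old mice that carried LysM cre, and MYC-deficient cells from mice of the same age with MYC f/f and LysM cre, so both genotypes carried the recombinase, which is driven from the lysozyme locus and active in myeloid cells. All cells were stimulated with RANKL (50 ng/ml) for 1 day, and each genotype had 2 libraries. No unstimulated cells and no later day of osteoclast differentiation were analysed here. The comparison asked which mTORC1 regulators differed in mRNA between MYC-deficient and MYC-WT cells early in osteoclastogenesis. Phosphorylation and protein levels, by which mTORC1 activity is read, were not measured by RNA-seq.

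mTORC1 is a kinase complex on the lysosome that promotes protein and lipid synthesis when growth factors and nutrients are both present. Growth factors act through AKT, which restrains the TSC complex and so leaves the small GTPase RHEB free to activate the kinase. Amino acids act through the Rag GTPases, which the Ragulator complex anchors on the lysosome, and which GATOR1 switches off and GATOR2, by opposing GATOR1, keeps on. The folliculin complex acts on RagC and RagD, and mTORC1 in turn phosphorylates S6 kinases and 4E-BPs.

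The E-box CACGTG is the DNA element bound by MYC with its partner MAX, and also by TFEB and TFE3, which control lysosomal genes and are regulated through RagC and folliculin. It was searched in the 250 bases before the RefSeq start of each gene (GRCm38.p6, the same assembly as mm10). The motif reads the same on both strands, so both were covered. Of the 43 genes, 36 were in the RefSeq promoter table with 38 promoters, and 8 promoters (21.1%) held it, against 8.33% of the 12528 promoters of tested genes and 6.02% of all 32851. This is a description of the letters and not of binding. The promoter of Fnip1, a folliculin partner that rose in MYC-deficient cells, is shown whole, at chr11:54437929-54438178 on the plus strand, with the E-box in capitals from 75 bases before the start.
Fnip1: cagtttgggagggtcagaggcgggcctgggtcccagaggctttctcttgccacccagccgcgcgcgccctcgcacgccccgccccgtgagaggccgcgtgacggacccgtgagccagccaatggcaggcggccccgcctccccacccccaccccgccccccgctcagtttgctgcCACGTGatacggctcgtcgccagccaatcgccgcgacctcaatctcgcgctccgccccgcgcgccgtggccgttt

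The other 7 genes are shown as 30 bases around each E-box, 5′ to 3′ on the strand of the gene, so that the flanks can be compared. Most of them act in the Rag arm or at the kinase: Rragc and Rragb (Rag GTPases), Lamtor1 and Lamtor4 (Ragulator) and Rheb. The others were Tbc1d7, a subunit of the TSC complex, and Bnip3, a mitochondrial protein that binds RHEB. The windows on the plus strand lie at chr4:123917309-123917338 for Rragc, chrX:153139819-153139848 and chrX:153139910-153139939 for Rragb, chr7:101905757-101905786 for Lamtor1 and chr5:138255350-138255379 and chr5:138255366-138255395 for Lamtor4. Those on the minus strand lie at chr5:24842440-24842469 for Rheb, chr13:43171537-43171566 for Tbc1d7 and chr7:138909597-138909626 for Bnip3.
Rragc: ggtgattccgggCACGTGatagtaccactt
Rragb, first copy: gagagcccgggcCACGTGatggcgggtggc
Rragb, copy nearest the start: aaagggtagcggCACGTGacaggccctggg
Lamtor1: ctgccttcctatCACGTGccgcgggtccgc
Lamtor4, first copy: gcagaaagttaaCACGTGaacagcttttca
Lamtor4, copy nearest the start: tgaacagcttttCACGTGtaaaccaaacca
Rheb: gccgcgcgcggtCACGTGggtgtgttgttg
Tbc1d7: ccggttaacatcCACGTGtgggtgggactc
Bnip3: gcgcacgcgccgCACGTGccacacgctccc
The longer form TCACGTGA, which contains the E-box, was in 0 of the 38 promoters, against 1.52% of promoters of tested genes. The FOXO motif GTAAACA, searched on both strands, was in 1 of the 38, against 2.25%. The windows before the start of Fnip2, Mios and Akt1s1, the other genes that passed the test, held no CACGTG. Seh1l, Foxo4, Lamtor3, Eif4ebp1, Rps6kb2, Wdr24 and Deptor were not searched.

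Sequencing gave 27544806 to 35794698 counts per library, and levels are given as CPM, which scales the counts of each gene to the total of its library. Myc itself was at 230 and 250 CPM in MYC-WT cells and at 17.7 and 24.2 CPM in MYC-deficient cells, which matches the labels (log2 fold change -3.49 ± 0.20, SE, adjusted p = 0.00711 by edgeR's quasi-likelihood test with Benjamini-Hochberg adjustment, the test behind every adjusted p here). Of the macrophage markers, 6 of 6 were detected. Their summed level was 3460 and 2820 CPM in MYC-WT libraries, against 5320 and 4840 CPM without MYC. Of these, 4 of 6 were higher without overlap (27.5% of all tested genes were), while Lyz2 and Mrc1 overlapped. Of the osteoclast markers, 9 of 10 were detected, with summed levels of 1940 and 2670 against 1700 and 1730 CPM. In MYC-deficient cells 7 of 10 were lower without overlap (35.9% of all tested genes were) and 1 was higher (Mmp9, 538 and 542 against 876 and 615 CPM). Dcstamp overlapped, with a higher mean in MYC-deficient cells (43.4 and 88.5 against 56.7 and 111 CPM). Calcr, a marker of mature osteoclasts, was at 0 in every library. Of the 7, Nfatc1, Ocstamp and Oscar had edgeR adjusted p of 0.0161, 0.0381 and 0.0381. Oscar had few counts (38 and 58 against 8 and 12). Acp5, Ctsk and Atp6v0d2 had edgeR adjusted p of 0.071, 0.104 and 0.153. Tnfrsf11a was nearly unchanged (log2 fold change -0.06, edgeR adjusted p = 0.726). Summed monocyte markers (35.1 and 33.7 against 181 and 140 CPM) and dendritic cell markers (26.0 and 66.3 against 126 and 293 CPM) were also higher in MYC-deficient cells. In MYC-deficient cells these sums were mostly Ccr2 (147 and 106 CPM) and Itgax (121 and 290 CPM). Without overlap, 3 of 5 monocyte and 4 of 5 dendritic cell markers were higher, against 27.5% of all tested genes. Cd209a, counted among these 4, passed the filter on low counts only through the MYC-deficient libraries, where it was higher. Its counts were 3 and 1 against 28 and 20, and its direction is not used as a result. Flt3 also had few counts (13 and 5 against 54 and 18), and Ccr7 did not pass the filter. Plac8 and Ccr7 overlapped, and so did Vcan, whose mean was lower in MYC-deficient cells. Neutrophil markers summed to 102 and 44.7 against 280 and 100 CPM. Lyz2, the gene that carries the Cre, was at 9.30 to 19.0 CPM. B cell, T cell, erythroid and stromal lists each summed to at most 5.73 CPM. The stromal genes Col1a1 and Col1a2 had counts only in MYC-deficient replicate 1, at 2.74 and 1.96 CPM. The part of these lists in the results was not tested, and fewer cells of a type cannot be told apart from less RNA per cell.

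All 43 genes passed the filter on low counts. With thresholds of 0.05 on the adjusted p and 1.5 on the fold change, 2 rose in MYC-deficient cells (Fnip1 and Fnip2), 2 fell (Mios and Akt1s1) and 39 did not pass. Across all 13436 genes tested, 16.0% passed, 9.91% as lower and 6.06% as higher, so 4 of 43 was below the background share. By the adjusted p alone, Seh1l and Rps6kb1 joined the lower genes, which made 4 lower and 2 higher, where 12.0% and 7.80% of all genes (19.8% together) passed. Both genes that rose and one that fell are counted as activators of mTORC1, and the other that fell as an inhibitor. The median log2 fold change was -0.04 over the 43 genes and -0.01 over all genes tested, with 22 genes below 0 and 21 above. By role it was 0.08 for 22 activators, -0.08 for 13 inhibitors and -0.07 for 7 effectors, and Rictor, which defines the other mTOR complex, mTORC2, was at 0.21. The calls rested on both MYC-WT libraries: without MYC-WT replicate 1, or without replicate 2, 0 of the 43 genes passed, and 983 and 264 of all genes did, compared with 2145 in the full set.

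**Figure D1:**
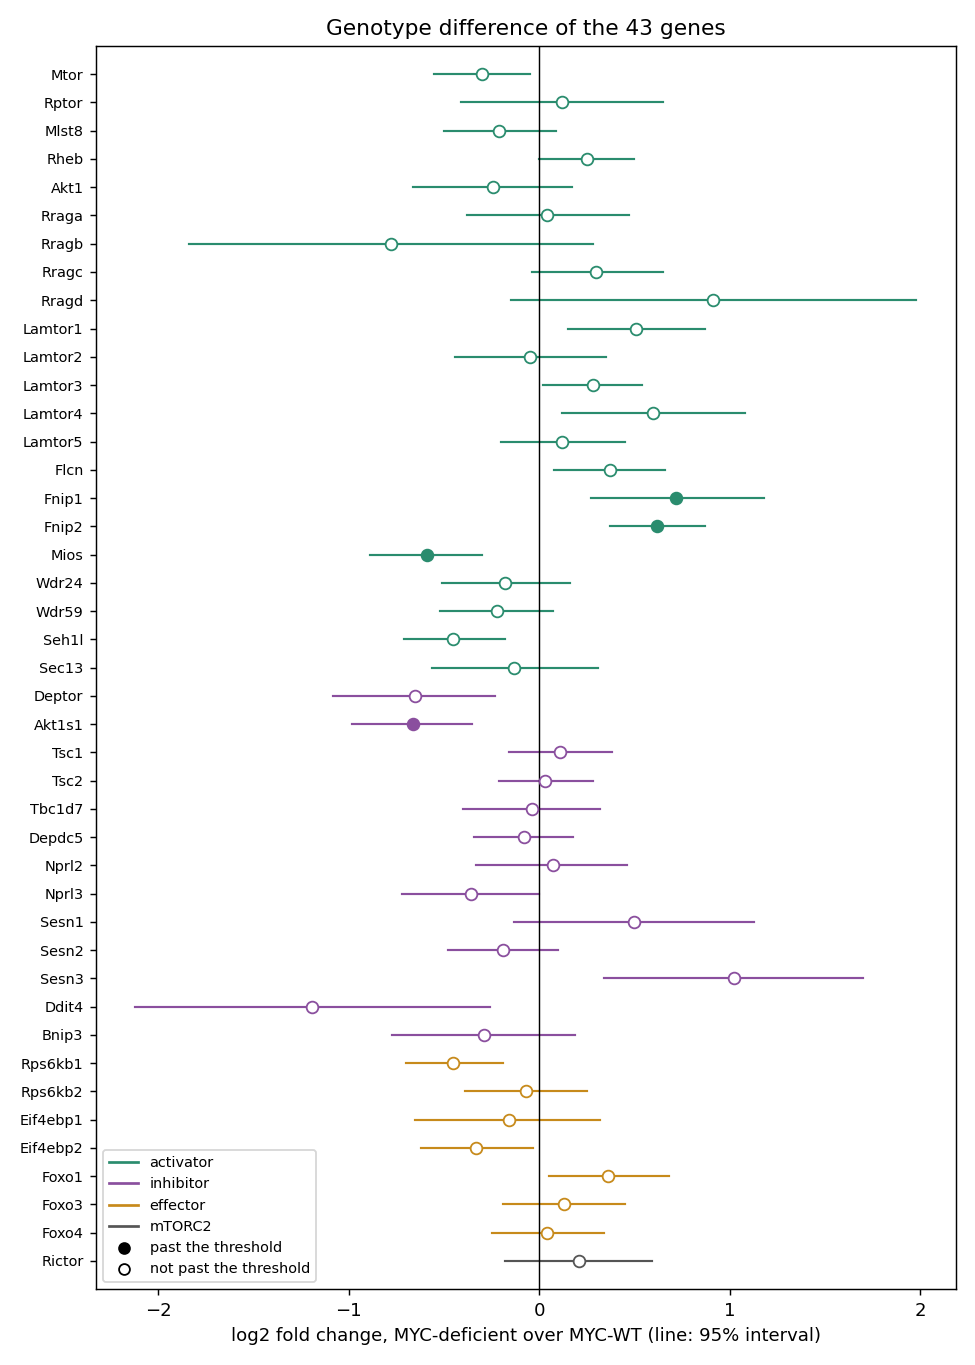
Log2 fold change of each gene in MYC-deficient over MYC-WT cells (x axis) with its 95% interval, by gene and role, from 2 libraries per genotype. Filled points are the 4 genes past the threshold (Fnip1 and Fnip2 above 0, Mios and Akt1s1 below 0), and the values run from -1.19 for Ddit4 to 1.02 for Sesn3.

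The kinase and its activating GTPase did not pass the test. Mtor, the kinase, was at 90.5 and 83.4 CPM in MYC-WT and at 68.9 and 69.7 CPM in MYC-deficient cells. Both MYC-deficient libraries lay below both MYC-WT libraries, at a log2 fold change of -0.30 ± 0.10 (SE, edgeR adjusted p = 0.0941). Rptor, the subunit that recruits substrates, was at 136 and 170 against 137 and 189 CPM, and the genotypes overlapped (0.12 ± 0.21, edgeR adjusted p = 0.721). For Rptor the spread between the replicates was larger than the difference between the genotypes. Rheb was at 96.3 and 89.2 against 107 and 109 CPM, with no overlap and a difference of 0.25 ± 0.10 (edgeR adjusted p = 0.134). Mlst8, a further subunit of the kinase, and Akt1 had log2 fold changes of -0.21 and -0.24 and did not pass.

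The folliculin complex held both genes that rose. Fnip1 was at 106 and 77.6 CPM in MYC-WT and at 164 and 132 CPM in MYC-deficient cells. The lower MYC-deficient library was above the higher MYC-WT library, a 1.65-fold increase (log2 fold change 0.72 ± 0.18, SE, edgeR adjusted p = 0.0481). The Fnip1 call was close to the threshold, with an adjusted p of 0.0598 when libraries were scaled by total counts and of 0.0557, 0.190 and 0.0779 without MYC-WT replicate 1, MYC-WT replicate 2 and MYC-deficient replicate 1. Fnip2, the paralog of Fnip1, was at 144 and 135 against 209 and 210 CPM. Its replicates lay close together in both genotypes, and the increase was 1.54-fold (0.62 ± 0.10, edgeR adjusted p = 0.0174). Fnip2 kept its call with total counts and without either MYC-deficient library and lost it without MYC-WT replicate 1 (adjusted p = 0.0856) or replicate 2 (0.129). Flcn, folliculin itself, was at 58.5 and 53.2 against 75.5 and 66.2 CPM, a difference of 0.37 ± 0.11 that did not overlap but missed the threshold (edgeR adjusted p = 0.0791).

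**Figure D2:**
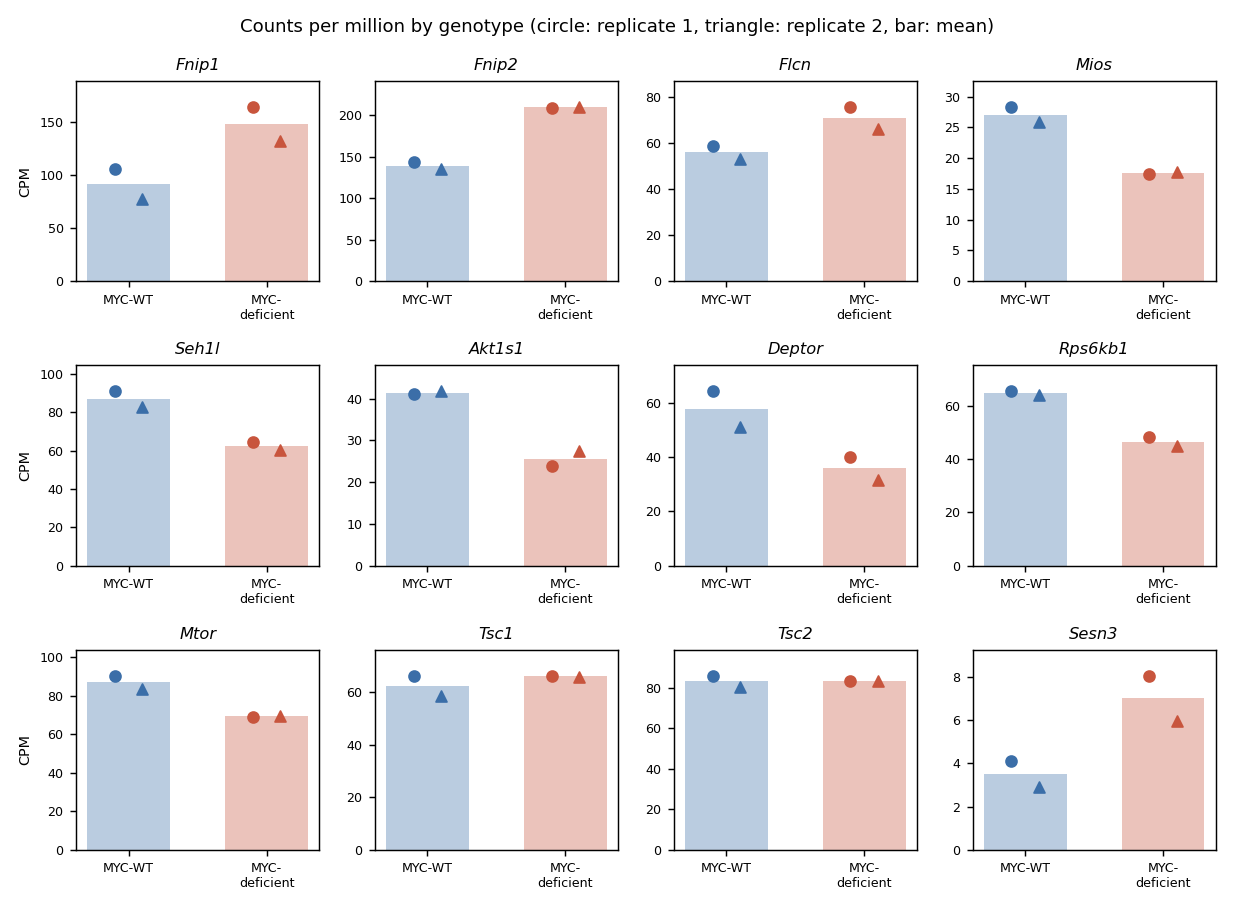
CPM of total counts (y axis, from 0) of 12 genes in the MYC-WT and MYC-deficient libraries, with bars for the mean of 2 replicates. Fnip1 and Fnip2 were higher and Mios and Akt1s1 lower in both MYC-deficient libraries, while Tsc1 and Tsc2 overlapped.

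No Rag or Ragulator gene passed the test. Rragc had 192 and 158 against 227 and 196 CPM, and the gap between the nearest libraries was small (0.30 ± 0.14, edgeR adjusted p = 0.177). Of the 5 Ragulator genes, 4 had values above 0 and Lamtor2 was at -0.05, with a median of 0.28 and none past the threshold. Lamtor1, which tethers the complex to the lysosomal membrane, was at 137 and 163 against 198 and 220 CPM (0.51 ± 0.14, edgeR adjusted p = 0.0631), and it passed without MYC-deficient replicate 1 (0.63, 0.0485). Lamtor4 was at 33.8 and 38.5 against 45.4 and 62.0 CPM, without overlap (0.60 ± 0.19, edgeR adjusted p = 0.0838). Its replicates stood further apart in MYC-deficient than in MYC-WT cells, and without MYC-deficient replicate 1 its value was 0.85. Lamtor4 passed in 6 of 16 alternative settings, DESeq2 and the likelihood ratio test among them. Rragb and Rragd, the minor Rag paralogs, had log2 fold changes of -0.78 ± 0.42 and 0.91 ± 0.42, at levels of 1.48 to 4.53 and 2.23 to 7.74 CPM. Leaving out 1 library moved Rragb between -1.31 and -0.35 and Rragd between 0.47 and 1.44.

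All 5 GATOR2 genes had values below 0, with a median of -0.22, and 1 passed. Mios, a WD40-repeat scaffold subunit, was at 28.3 and 25.9 CPM in MYC-WT and at 17.4 and 17.8 CPM in MYC-deficient cells. The 2 MYC-deficient libraries were nearly equal and lay below both controls, a 1.51-fold decrease (-0.59 ± 0.12, SE, edgeR adjusted p = 0.0282). The size stood at the fold threshold, and Mios lost its call with RLE scaling (-0.56, edgeR adjusted p = 0.0351). It also lost it with DESeq2, with limma-trend and on leaving out any 1 library, and passed in 7 of 16 alternative settings. Seh1l, shared with the nuclear pore, was at 91.0 and 83.0 against 64.8 and 60.6 CPM. Its difference of -0.45 ± 0.10 passed the adjusted p (edgeR, 0.0404) but not the fold threshold. Wdr24, Wdr59 and Sec13 lay between -0.22 and -0.13, and Sec13 turned to 0.08 without MYC-WT replicate 2 and to 0.03 without MYC-deficient replicate 1. GATOR1, the complex that GATOR2 opposes, had values of -0.08 (Depdc5), 0.07 (Nprl2) and -0.36 (Nprl3), none past the threshold.

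Inhibitors that sit on the kinase were the lowest pair among the inhibitors with over 10 CPM. Akt1s1 encodes PRAS40, an AKT substrate that blocks substrate access to mTORC1. It was at 41.0 and 41.7 CPM in MYC-WT and at 23.8 and 27.4 CPM in MYC-deficient cells. Both MYC-deficient libraries were well below the controls, which were nearly equal, and the decrease was 1.58-fold (-0.66 ± 0.13, SE, edgeR adjusted p = 0.0256). Akt1s1 lost its call without MYC-WT replicate 1 (adjusted p = 0.0856), MYC-WT replicate 2 (0.139) or MYC-deficient replicate 1 (0.0794). It shares 89 exonic bases, 2.90% of its exons, with Tbc1d17 on the other strand (40.6 CPM), and reads there cannot be assigned without the strand setting. Deptor, which binds mTOR in both complexes, was at 64.1 and 51.0 against 40.1 and 31.5 CPM. The groups did not overlap, and the fold was about as large as for Akt1s1 (-0.65 ± 0.17). The adjusted p just missed 0.05 (edgeR, 0.0501), so Deptor was not called, and without MYC-deficient replicate 1 its value was -0.80. Deptor passed in 6 of 16 alternative settings, DESeq2 and the likelihood ratio test among them, and Akt1s1 in 11. Deptor lies 6.73 Mb from Myc on chromosome 15, so an effect of sequence that travels with the floxed Myc allele and an effect of MYC loss cannot be told apart.

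The TSC complex, the main brake on RHEB, did not pass, with narrow intervals around no change. Tsc1 was at 66.3 and 58.6 CPM in MYC-WT and at 66.1 and 65.9 CPM in MYC-deficient cells, and the libraries overlapped. Its log2 fold change was 0.11 ± 0.11 (95% interval -0.16 to 0.38, edgeR adjusted p = 0.518). Tsc2 was at 86.1 and 80.5 against 83.5 and 83.4 CPM, with both MYC-deficient values between the controls (0.03 ± 0.10, 95% interval -0.21 to 0.28, edgeR adjusted p = 0.848). These intervals leave room for no change of 1.5-fold in either gene under this model. Tsc2 shares 7.20% of its exonic bases with Pkd1 (99.7 CPM), which lies on the opposite strand. Tbc1d7 was at -0.04 and also overlapped.

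None of the sestrins and stress-induced inhibitors passed, and Sesn3, Ddit4 and Bnip3 had low counts. Sesn3 was at 4.12 and 2.92 CPM in MYC-WT and at 8.05 and 5.95 CPM in MYC-deficient cells. The groups did not overlap, and the difference was the largest above 0 among the 43 genes (1.02 ± 0.27) but missed the threshold (edgeR adjusted p = 0.0539). It passed in 7 of 16 alternative settings, among them RLE scaling (edgeR adjusted p = 0.0498) and DESeq2. Sesn1 and Sesn2, leucine- and stress-responsive relatives, were at 0.50 ± 0.25 and -0.19 ± 0.11. Ddit4, which encodes REDD1, an activator of TSC under hypoxia and stress, had only 34, 45, 21 and 14 counts, or 1.02 and 1.54 against 0.587 and 0.508 CPM. Its value was the lowest of the 43 genes (-1.19 ± 0.37, 95% interval -2.12 to -0.26, edgeR adjusted p = 0.0784), and the few counts left a wide interval. Ddit4 passed in 4 of the 14 alternative settings that held it. Bnip3 was at 6.80 and 7.58 against 6.03 and 5.52 CPM (-0.29 ± 0.19, edgeR adjusted p = 0.325).

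None of the 7 effectors passed both thresholds. Rps6kb1, which encodes p70 S6 kinase, was at 65.3 and 64.0 CPM in MYC-WT and at 48.1 and 44.9 CPM in MYC-deficient cells. Replicates lay close together and the groups were apart, at a 1.36-fold lower level (-0.45 ± 0.10, SE, edgeR adjusted p = 0.0382) that did not reach the fold threshold. Rps6kb2, its paralog, was at 20.5 and 21.6 against 19.0 and 20.3 CPM (-0.07 ± 0.13, edgeR adjusted p = 0.728). Eif4ebp1, the translation repressor that mTORC1 inactivates, was at 56.9 and 74.3 against 51.5 and 63.6 CPM. Its genotypes overlapped (-0.16 ± 0.19, edgeR adjusted p = 0.592), and Eif4ebp2 was at -0.33 ± 0.12 (edgeR adjusted p = 0.109).

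FOXO factors, which AKT keeps out of the nucleus, did not pass. Foxo1 was at 17.2 and 15.4 CPM in MYC-WT and at 20.5 and 20.6 CPM in MYC-deficient cells, without overlap (0.36 ± 0.12, edgeR adjusted p = 0.0990). Foxo3 was at 69.1 and 56.6 against 70.2 and 64.6 CPM (0.13 ± 0.13, edgeR adjusted p = 0.513). Foxo4 was at 21.1 and 19.7 against 20.4 and 20.9 CPM (0.04 ± 0.12, edgeR adjusted p = 0.828). Of the 3 factors, Foxo1 alone had its libraries apart by genotype, as did 63.4% of all tested genes.

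**Figure D3:**
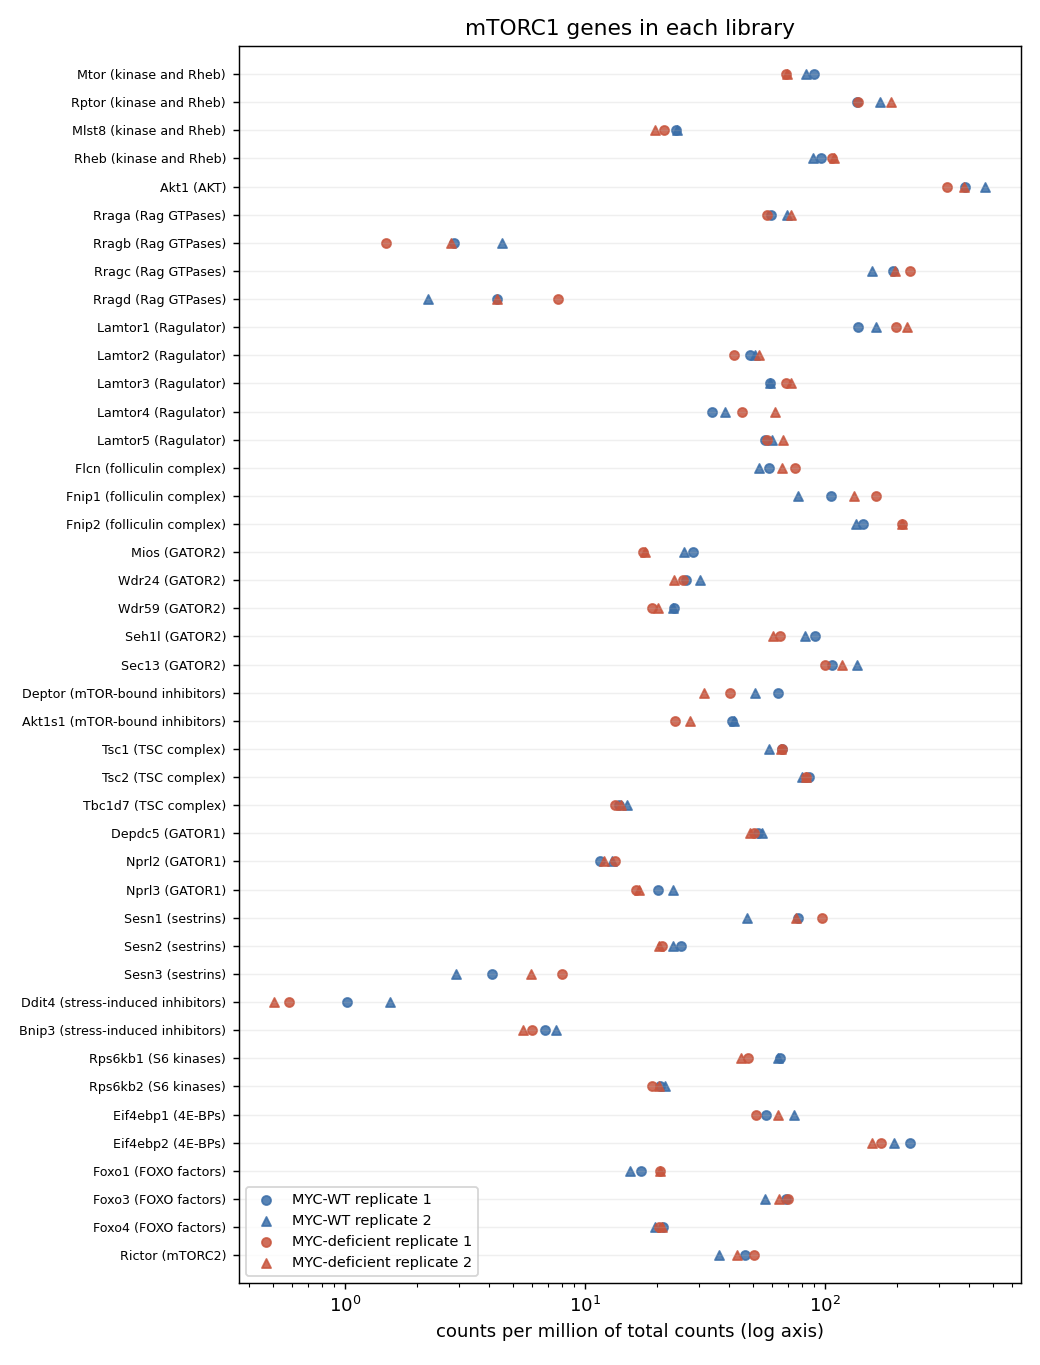
CPM of total counts (x axis, log scale) of each of the 43 genes in the 4 libraries, coloured by genotype with 1 symbol per replicate. The genotypes lie close together for most genes, and Rragb, Rragd, Sesn3, Ddit4 and Bnip3 stay below 10 CPM in every library.

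By non-overlap of the replicates alone, 18 of the 43 genes were lower and 11 higher in MYC-deficient cells, where 35.9% and 27.5% of all tested genes were (63.4% in either direction). On the low side were 4 of 5 GATOR2 genes, 2 of 2 mTOR-bound inhibitors, 2 of 2 stress-induced inhibitors, 2 of 2 S6 kinases, 2 of 3 GATOR1 genes, 2 of 4 genes of the kinase and Rheb, and single genes of other families. On the high side were 3 of 3 folliculin genes, 3 of 5 Ragulator genes, 2 of 4 Rag GTPases and single genes of other families. Of the TSC complex, 0 of 3 genes were apart in either direction. Non-overlap can be slight: Rps6kb2, counted as lower, was at 20.5 and 21.6 against 19.0 and 20.3 CPM. These family counts were not tested. With 2 libraries against 2, an exact permutation test of a single gene cannot give a p below 0.333.

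Compared per kb of exon (CPM divided by the length of the merged exons in kb), levels differed widely within families as well as between them. Akt1 had the highest mean level in MYC-WT cells at 104, followed by Lamtor5 at 65.7, Rragc at 52.3 and Lamtor1 at 46.6. Sesn3 had the lowest at 0.230, below Rragd at 0.631 and Ddit4 at 0.731. On this scale Mtor (8.60), Rptor (11.4), Tsc1 (5.28) and Tsc2 (8.66) lay below all 5 Ragulator genes, of which Lamtor3 (14.3) and Lamtor4 (27.7) were the lowest and Lamtor2 was at 41.1. The order was similar in MYC-deficient cells, where Akt1 (85.7) and Lamtor5 (70.3) were again first. Lamtor4 moved from place 10 to 5 and Akt1s1 from 15 to 21.

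By share of the counts per kb in each library, paralogs were used unevenly in some groups and nearly evenly in others. Eif4ebp1 made up 39.8 and 50.1% of the 4E-BP transcripts in the controls against 44.3 and 51.6% in MYC-deficient cells. Rraga made up 95.5 to 98.2% of the RagA and RagB genes, and Rragc 97.8 to 99.1% of the RagC and RagD genes. Sesn1 was the main sestrin, with 72.2 and 63.5% in the controls against 78.8 and 75.3% in MYC-deficient cells. Rps6kb1 made up 65.6 and 63.9% of the S6 kinase transcripts in the controls against 60.2 and 56.9% in MYC-deficient cells, without overlap. Its paralog Rps6kb2 shares 23.7% of its exonic bases with Ptprcap on the opposite strand. Reads there cannot be assigned without the strand setting, so these shares are uncertain. Fnip1 and Fnip2, which both rose, kept overlapping shares (Fnip1 46.2 and 40.4% against 47.9 and 42.6%). No test was made of these shares.

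**Figure D4:**
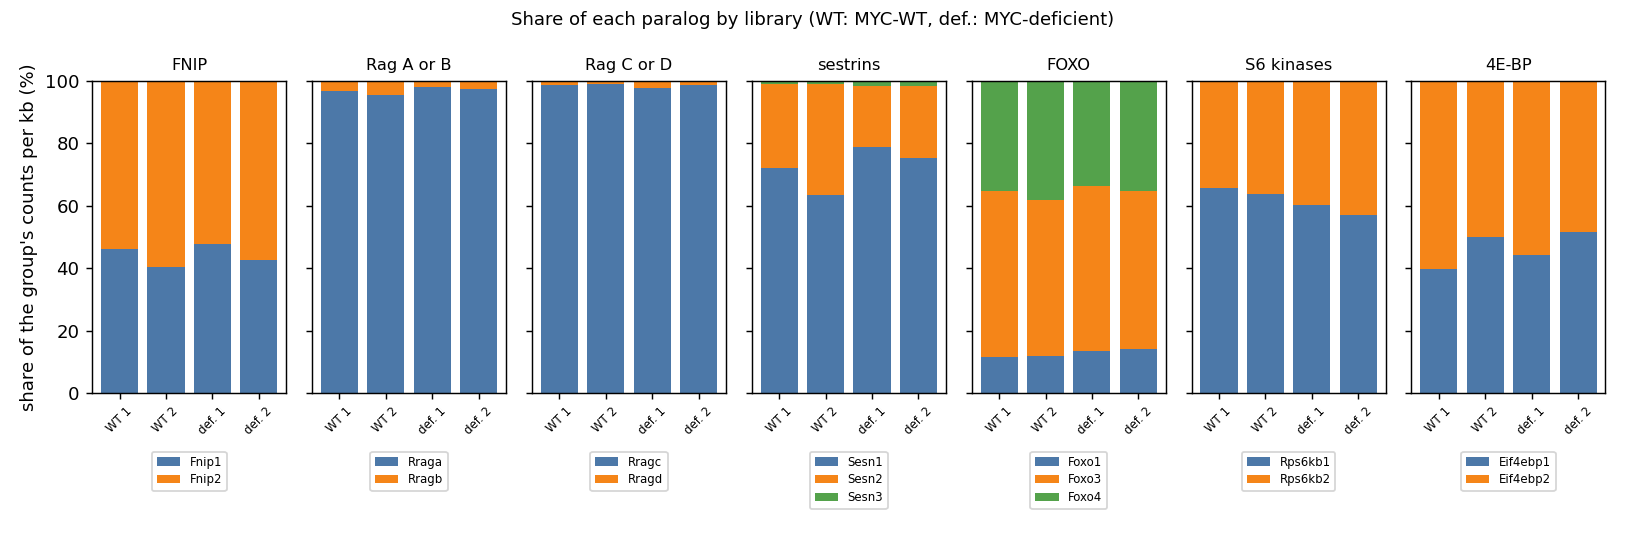
Share of each paralog in the counts per kb of its group (y axis, percent) in each of the 4 libraries. Rraga and Rragc make up over 95% of their groups in every library, and the share of Rps6kb1 is lower in both MYC-deficient libraries (60.2 and 56.9%) than in the controls.

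A further 56 genes of the pathway, listed for their role, showed 8 lower and 3 higher among the 53 tested, and their median was 0.01 on the log2 scale. Over all genes 9.91% were lower and 6.06% higher (16.0% together). Prr5 and Ddit4l, counted among the 8, passed the low-count filter only through the MYC-WT libraries, where they were higher, and their calls are not used as results. On the genes the authors kept, 6 were lower. Of these Rps6, the ribosomal protein that S6 kinase phosphorylates, was at 335 and 415 against 143 and 157 CPM (-1.30 ± 0.16, edgeR adjusted p = 0.0110). Larp1, an mTORC1 substrate that binds mRNAs of ribosomal proteins, was at 366 and 409 against 185 and 180 CPM (-1.06 ± 0.12, edgeR adjusted p = 0.0100). For both genes each MYC-deficient library was far below each control. Eif4b (-0.89), Pdcd4 (-0.76), which restrains the helicase that EIF4B assists, and Eif4e (-0.63), the cap-binding protein that 4E-BPs hold, also fell.

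Irs2, an adaptor of the insulin receptor in PI3K signalling, rose in MYC-deficient cells. It was at 3.79 and 2.64 CPM in MYC-WT and at 12.0 and 13.2 CPM in MYC-deficient cells (1.99 ± 0.23, edgeR adjusted p = 0.0106). In the mTORC2 and assembly list, Telo2, a chaperone cofactor of mTOR, fell (-0.92 ± 0.15, edgeR adjusted p = 0.0184), and Prr5l, an mTORC2 partner, passed as higher (1.49 ± 0.32, edgeR adjusted p = 0.0337). None of 9 KICSTOR and sensor genes, 7 LKB1 and AMPK genes or 3 TFEB family genes passed in edgeR's test. Of the TFEB family, Tfe3 was at 120 and 117 against 149 and 149 CPM (0.35, edgeR adjusted p = 0.0551), short of both thresholds, and Tfeb was at 32.7 and 38.5 against 48.1 and 68.1 CPM (0.73, edgeR adjusted p = 0.0652). Without MYC-WT replicate 2, 0 of the 11 calls in this list were made, and without MYC-WT replicate 1, 3 lower and 1 higher were.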

How the data were processed

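The authors deposited raw gene counts of 4 mouse BMDM libraries, the same counts for the genes they kept, and log2 CPM of those genes, which served for 1 alternative test. Tools named in the submitters' processing notes are STAR 2.7.3a, bcl2fastq 1.8.4, edgeR and fastp, with mm10 as the build. Not given in the sources used here are the annotation release, the strand setting and the tool that counted, so overlapping and antisense genes cannot be separated. The deposited files hold no columns of comparisons. The sources call the 2 libraries of a genotype biological replicates without saying whether they were separate mice, so p-values measure the spread between these libraries.

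The count model was edgeR 4.0.16 in R 4.3.3 (filterByExpr with min.count 10 and min.total.count 15, TMM factors of 0.982 to 1.02, quasi-likelihood test, Benjamini-Hochberg adjustment over 13436 genes). The common biological coefficient of variation was 0.167, with 2 residual degrees of freedom. The study's thresholds were used, 0.05 for the adjusted p and 1.5 for the fold change. The standard error is the log2 fold change over the square root of F. Tests and intervals use the fit's total degrees of freedom, which add variance information shared across genes to the 2 residual ones. CPM used total counts. Lengths per kb are merged exons of GENCODE M21, where all 28443 identifiers and 27887 coordinates matched. The scripts were tested on simulated counts. DESeq2 1.42.0, limma 3.58.1 and the other alternatives are given under sensitivity.

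The 43 genes, the further pathway genes and the markers were chosen with earlier results of these data known. Named genes were those past the threshold, Mtor, Rptor, Rheb, Tsc1, Tsc2, the S6 kinases, Eif4ebp1 and the regulators the study screened (Deptor, Ddit4, Foxo1, Foxo3, Foxo4, Bnip3), and among further pathway genes up to 10 past the threshold by smallest adjusted p, of which 1 is not reported here. Per-library values of Flcn, Seh1l, Lamtor1, Lamtor4, Rragc, Sesn3, Tfe3 and Tfeb were added after they were seen. Of the 43 genes, 14 share exonic bases with another gene, the most being 23.7% (Rps6kb2), 22.5% (Mlst8), 22.3% (Bnip3) and 18.7% (Lamtor1). Bnip3, Lamtor1, Lamtor3 and Lamtor5 have pseudogene copies, of at most 0.449 CPM where a level is known. The level of 1 copy of Bnip3 is not known.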

Additional observations from a re-analysis of the deposited data

How the results depend on the processing

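The 2 lower and 2 higher mTORC1 genes became 1 lower with RLE scaling or limma-trend, 4 lower with no fold threshold, 1 higher with total counts and 4 higher with DESeq2. With edgeR's likelihood ratio or exact test they became 4 and 4, with no filter 4 and 5, and with a fold over 2 or a fold of 1.5 inside the test 0 and 0. Without single libraries, lower calls ranged from 0 to 1 and higher calls from 0 to 3. Of the further pathway genes, 8 lower became 4 with a fold over 2 and 1 with the fold inside the test (0 to 7 without single libraries). The 3 higher became 5 with no filter, likelihood ratio or exact test and 1 with the fold inside the test (0 to 4). Over all genes, 2145 calls became 1038 with a fold over 2 and 429 with the fold inside the test (264 to 2159), and 3182 with no filter, 2697 with the likelihood ratio test and 2639 with the exact test. In fits without a library, the lone sample of a genotype is assumed to vary like the others.

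Shared replicate numbers are not stated to pair the libraries. With the replicate block, 5 mTORC1 genes were lower and 5 higher, and 5 further pathway genes were higher, while calls over all genes went from 2145 to 3174. Differences of replicate 2 from 1 correlated between genotypes at 0.50 over 13436 genes and 0.79 over the 43.

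Of the 43 genes, 9 changed sign in at least 1 fit that left out 1 library. They were Rptor (-0.05 and -0.15, range -0.15 to 0.37), Rraga (-0.09 and -0.15, to 0.24), Lamtor2 (0.01 and 0.16, from -0.25), Lamtor5 (0.00, to 0.27), Sec13 (0.08 and 0.03, from -0.31), Tbc1d7 (0.04 and 0.04, from -0.12), Nprl2 (-0.03, to 0.17), Rps6kb2 (0.02, from -0.13) and Eif4ebp1 (0.07 and 0.02, from -0.36). Of the 43, 0 passed in every one of the 16 alternatives and 30 passed in none. Cause was not tested. Ddit4, Rragb, Rragd, Sesn3 and Bnip3 were each under 10 CPM.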
